A study of Mus musculus with 16 samples.

Results

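In all, 10 genes of the transforming growth factor beta (TGF-beta) pathway were followed in primary lung adenocarcinomas and metastases of mice: the ligands Tgfb1, Tgfb2 and Tgfb3, the receptors Tgfbr1, Tgfbr2 and Tgfbr3, the inhibitor Smad7, and the target genes Id1, Id2 and Id3. They were taken by name, and every probe set annotated to 1 of these symbols alone was used, which gave 18 probe sets for the 10 genes among the 22626 probe sets tested (12393 genes). Tgfb2, Tgfbr1, Tgfbr2 and Id2 have 3 probe sets each, and the other 6 genes have 1. A probe set is a group of short oligonucleotides on the array that measures a transcript of the gene.

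TGF-beta ligands are secreted in a latent form and, once released, bind the receptor kinase Tgfbr2, which recruits and phosphorylates the receptor kinase Tgfbr1. Tgfbr1 then phosphorylates Smad2 and Smad3, which enter the nucleus with Smad4 and alter transcription. In lung epithelium the pathway is known for holding back growth, and in carcinoma cells it is known for favouring a mesenchymal, invasive state. Tgfbr3, also called betaglycan, presents ligand to Tgfbr2 and has no kinase of its own. Smad7 is induced by the pathway and blocks the receptors in return. The Id proteins bind E proteins, a family of helix-loop-helix transcription factors, and keep them off DNA. Id genes are induced by the related bone morphogenetic proteins (BMPs) through Smad1 and Smad5, and TGF-beta can raise or lower them by cell type.

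The 16 tumors, with 1 array each, were 9 metastases and 7 primary lung adenocarcinomas, all from p53R172H∆g/+ K-rasLA1/+ mice, heterozygous for both alleles. The K-rasLA1 allele is latent and becomes active somatically in scattered cells, while the p53 allele is a germline missense mutation, so metastases and primary tumors carry both. The metastases came from mice 1 to 4: 2 body wall tumors and 1 liver tumor of mouse 1, 1 liver tumor of mouse 2, a body wall, a heart and a mediastinal lymph node tumor of mouse 3, and a mediastinal lymph node and a parietal pleura tumor of mouse 4. Mice 1 to 7 gave 1 primary tumor each, and no metastasis of mice 5 to 7 was profiled here. Mouse 6 was female and the others male, and ages and strain are not given in the sources used here. The body wall tumors are labelled subcutaneous or inguinal by the submitters, and the study's sample list calls them body wall.

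The tumors were dissected free of adjacent tissue and measured in bulk, so fewer cells of a type and less RNA per cell cannot be told apart. Values are model intensities on a linear scale with no physical unit. The median intensity of an array lay between 75.0 and 85.5, and correlations between arrays lay between 0.900 and 0.969. The number of arrays limits the precision. Some member probe sets were dim. An intensity of 24.3 marks the 25th percentile over all values, and 1450922_a_at and 1450923_at of Tgfb2 were under it in 7 tumors each and 1425444_a_at of Tgfbr2 in 6. Another, 1422019_at of Tgfbr2, was under it in all 16, at intensities between 1.71 and 17.8, and its fold changes rest on dim values. Of the 8 listed markers of alveolar type 2 cells, the lung cell type these adenocarcinomas resemble, 7 were measured, and none was at the floor. Their summed intensity lay between 1132 and 28023 (median 9417) in metastases and between 17109 and 46417 (median 37611) in primary tumors.

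The 250 bases before the gene start are shown for Tgfbr1 and Tgfbr2, the receptors whose probe sets lay lower in metastases, and for Tgfb1 and Id3, whose values in the primary tumors of mice 1 to 4 and of mice 5 to 7 did not overlap. The sequences are from RefSeq (GRCm38.p6), and promoters of 6 of the 10 genes were read (Tgfb1, Tgfb2, Tgfbr1, Tgfbr2, Id2 and Id3). Capitals mark CAGAC, the core of the Smad-binding element, and GGGCGG, the GC box, on either strand. Each sequence runs 5′ to 3′ on the strand of its gene.
Tgfbr1 chr4:47352972-47353221 (plus strand): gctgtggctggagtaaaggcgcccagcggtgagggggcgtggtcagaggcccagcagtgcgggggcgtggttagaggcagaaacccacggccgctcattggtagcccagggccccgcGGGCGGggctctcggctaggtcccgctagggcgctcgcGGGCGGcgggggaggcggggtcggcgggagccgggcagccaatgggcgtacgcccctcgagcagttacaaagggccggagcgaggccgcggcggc
Tgfbr2 chr9:116175364-116175613 (minus strand): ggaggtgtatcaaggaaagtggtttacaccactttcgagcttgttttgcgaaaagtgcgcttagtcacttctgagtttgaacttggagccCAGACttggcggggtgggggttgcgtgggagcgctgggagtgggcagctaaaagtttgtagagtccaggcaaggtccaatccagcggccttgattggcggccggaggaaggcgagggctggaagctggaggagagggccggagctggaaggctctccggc
Tgfb1 chr7:25686752-25687001 (plus strand): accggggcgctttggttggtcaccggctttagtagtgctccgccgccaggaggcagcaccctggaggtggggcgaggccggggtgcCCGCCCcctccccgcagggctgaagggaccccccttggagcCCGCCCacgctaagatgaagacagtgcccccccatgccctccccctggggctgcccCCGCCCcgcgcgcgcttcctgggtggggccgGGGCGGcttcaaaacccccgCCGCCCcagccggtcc
Id3 chr4:136143572-136143821 (plus strand): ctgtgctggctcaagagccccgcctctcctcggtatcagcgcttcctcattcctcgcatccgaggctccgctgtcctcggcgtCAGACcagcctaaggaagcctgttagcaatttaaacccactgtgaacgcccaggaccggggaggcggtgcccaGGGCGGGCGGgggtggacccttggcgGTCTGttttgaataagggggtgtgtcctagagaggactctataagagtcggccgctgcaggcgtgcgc
Tgfbr1 held 0 CAGAC and 2 GGGCGG matches, Tgfbr2 held 1 and 0, Tgfb1 held 0 and 5, and Id3 held 2 and 2, the last pair overlapping by 2 bases. Of 32851 RefSeq promoters cut to the same 250 bases, 42.2% held CAGAC and 32.7% held GGGCGG. The G and C content was 74.8% at Tgfbr1, 58.4% at Tgfbr2, 75.2% at Tgfb1 and 62.8% at Id3, with a median of 52.4% over all promoters. A second Tgfbr1 start (chr4:47385966-47386215, not shown) held 1 CAGAC and 0 GGGCGG matches, with a G and C content of 52.8%. A match is a description of the letters and not evidence of binding.

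The first comparison paired metastases with the lung tumor of the mouse they arose in, in 13 tumors (9 metastases and 4 primary tumors), and asked which genes differ when an adenocarcinoma has spread. No member probe set passed an adjusted p of 0.05 in limma, where 0.354% of all 22626 probe sets did. At an unadjusted p under 0.05, 5 of the 18 were lower in metastases, all of Tgfbr1 and Tgfbr2, where 7.1% of all probe sets were lower, and 0 of 18 were higher, where 4.28% of all were. The methods' t-test over the 9 log2 ratios placed 4 of the 18 at p under 0.01, where 9.76% of all probe sets were, and 2 at an adjusted p under 0.05, where 3.91% of all were. The median log2 difference of the 18 was −0.20, and 12 of them were negative. Over all probe sets tested the median was −0.02, and 52.5% were negative. These 13 tumors come from only 4 mice. Without mouse 1, 2 of the 18 stayed under an unadjusted p of 0.05.

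**Figure D1:**
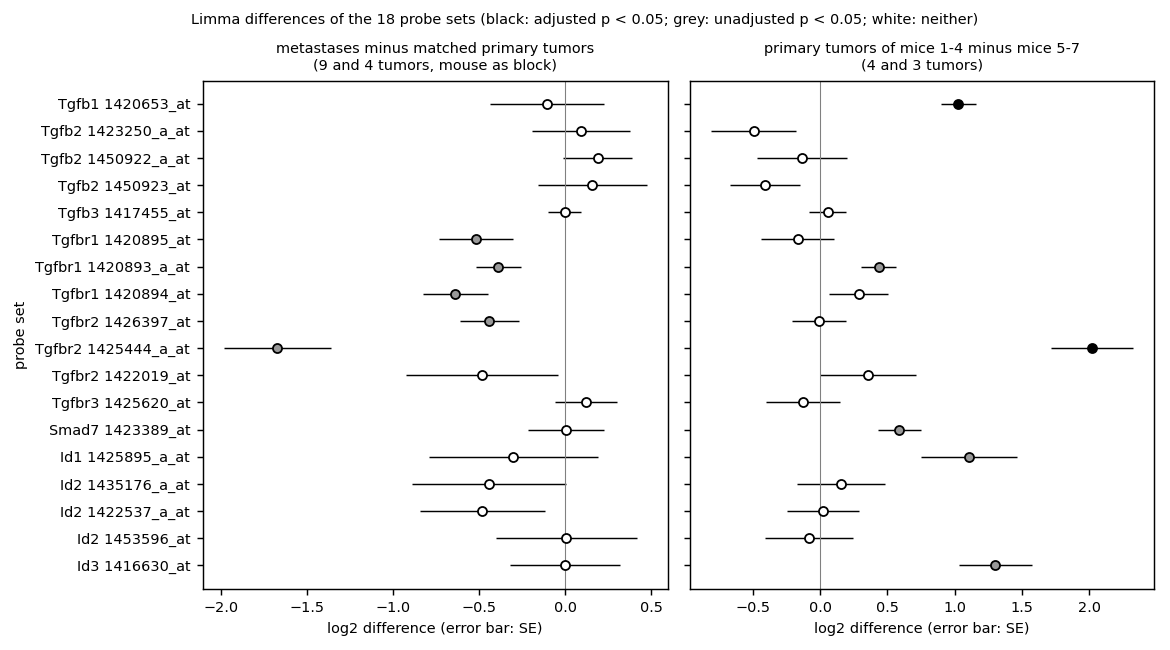
Limma log2 difference of each of the 18 probe sets, as a point with its SE, for metastases minus matched primary tumors (left) and for primary tumors of mice 1 to 4 minus those of mice 5 to 7 (right). On the left the 5 grey points are Tgfbr1 and Tgfbr2 probe sets below 0, and on the right the black points are Tgfb1 at 1.03 and Tgfbr2 1425444_a_at at 2.02.

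Both signalling receptors were lower in most metastases than in the matched primary tumors, without passing the adjusted threshold. The widest gap was at 1425444_a_at of Tgfbr2, the ligand-binding kinase. Its intensity was 32.9 and 20.0 in the inguinal and the subcutaneous body wall metastasis of mouse 1 and 24.7 in its liver metastasis, against 67.8 in the primary tumor of mouse 1. In mouse 2 the liver metastasis had 12.4, against 59.3 in the primary tumor. In mouse 3 the body wall, heart and lymph node metastases had 32.2, 57.5 and 15.8, against 108 in the primary tumor. In each of these mice every metastasis lay below its own primary tumor. The lymph node and pleura metastases of mouse 4 had 20.3 and 29.7, against 63.2 in the primary tumor. So 9 of 9 metastases were below their own primary tumor, and none reached the lowest of the 4 matched primary tumors (59.3). Below the own primary tumor in 9 of 9 metastases were 2 member probe sets, this one and 1420894_at of Tgfbr1, as were 3.6% of all probe sets.

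The limma difference at 1425444_a_at was −1.67 log2 units (SE 0.31, adjusted p = 0.0651). The mean log2 ratios of mice 1 to 4 were −1.42, −2.26, −1.81 and −1.37. The adjusted p lay at 0.0408 without the lymph node metastasis of mouse 3 and at 0.0357 without the heart metastasis of mouse 3. It was 0.0454 with intensities floored at 24.3, 0.0189 with dim probe sets left out, 0.0203 with a variance trend and robust prior, and 0.0108 in the methods' t-test. Over the other alternatives it lay between 0.0603 and 0.331, the highest without mouse 1. The primary tumors of mice 5, 6 and 7 had 25.3, 12.7 and 17.6 at this probe set, inside the range of the metastases (12.4 to 57.5), so the gap held only against the primary tumors of mice 1 to 4.

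The brightest Tgfbr2 probe set, 1426397_at, differed less between metastases and primary tumors. It had 591, 472 and 679.9 in the 2 body wall metastases and the liver metastasis of mouse 1 and 373 in the liver metastasis of mouse 2, against 845 and 754 in their primary tumors. It had 1044, 723 and 855 in the body wall, heart and lymph node metastases of mouse 3 and, in mouse 4, 809 in the lymph node and 656 in the pleura, against 1056 and 756 in their primary tumors. The difference was −0.44 (SE 0.17, adjusted p = 0.349), with 8 of 9 metastases below their own primary tumor and the lymph node metastasis of mouse 4 above it. The ranges of metastases and primary tumors overlapped. Over the 16 tumors, log2 values of 1426397_at and 1425444_a_at correlated with a Pearson r of 0.41, a description over tumors that share mice. The dim 1422019_at gave −0.48 (SE 0.44, adjusted p = 0.748).

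Tgfbr1, the kinase that phosphorylates Smad2 and Smad3, was lower at all 3 of its probe sets at an unadjusted p under 0.05. At the brightest, 1420895_at, the body wall and liver metastases of mouse 1 had 438, 266 and 432 and the liver metastasis of mouse 2 had 282, against 535 and 546 in their primary tumors. The body wall, heart and lymph node metastases of mouse 3 had 624, 367 and 419 and, in mouse 4, the lymph node had 449.5 and the pleura 378, against 443 and 724 in their primary tumors. Of the 9, 8 were below their own primary tumor, and the body wall metastasis of mouse 3 was above it. The difference was −0.52 (SE 0.21, adjusted p = 0.390).

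The other 2 Tgfbr1 probe sets gave −0.64 (SE 0.19, adjusted p = 0.219) at 1420894_at and −0.39 (SE 0.13, adjusted p = 0.274) at 1420893_a_at. At 1420894_at the metastases lay between 43.8 and 90.8 (median 72.0), against 83.6, 88.5, 108 and 134 in the primary tumors of mice 1 to 4. At 1420893_a_at the metastases lay between 76.5 and 119 (median 96.3), against 137, 117, 119 and 135 in the primary tumors of mice 1 to 4. At each of these probe sets the groups overlapped at their edges. The methods' t-test gave an adjusted p of 0.0283 at 1420893_a_at. The primary tumors of mice 5 to 7 lay between 86.5 and 102 at this probe set, inside the range of the metastases.

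Tgfbr3, the co-receptor without a kinase, gave a small difference with the opposite sign. It lay between 165 and 288 (median 240.1) in metastases, against 197, 271, 185 and 221 in the primary tumors of mice 1 to 4. The difference was 0.12 (SE 0.18, adjusted p = 0.855), with 6 of 9 metastases above their own primary tumor. The 2 liver metastases and the pleura metastasis were the ones below it.

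**Figure D2:**
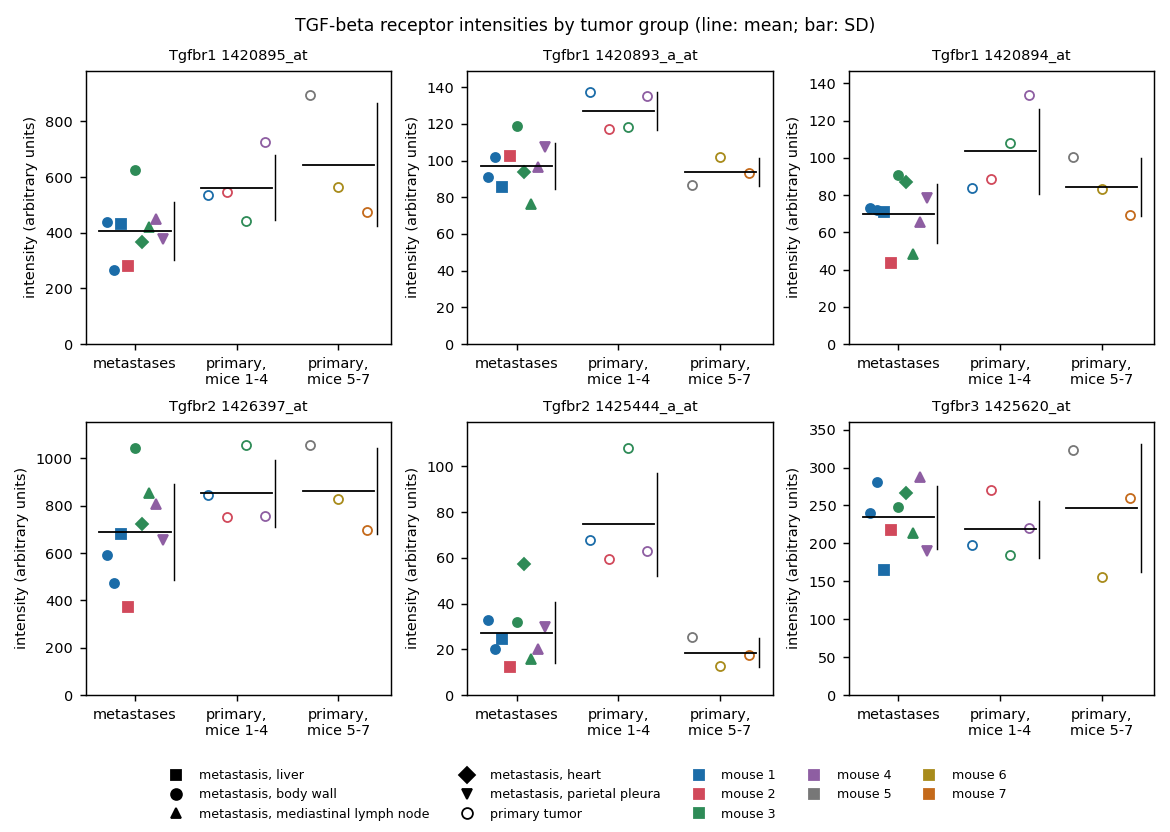
Intensity (arbitrary units, linear axes from 0) of the 6 receptor probe sets that reach the 25th percentile in some tumor, in metastases (filled), primary tumors of mice 1 to 4 and primary tumors of mice 5 to 7 (open), with the group mean as a line and the SD as a bar. At Tgfbr2 1425444_a_at the metastases (12.4 to 57.5) lie below the primary tumors of mice 1 to 4 (59.3 to 108) and overlap those of mice 5 to 7 (12.7 to 25.3).

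Other cell type markers moved between the same tumors. In metastases against matched primary tumors, 6 of 7 alveolar type 2 markers, 4 of 5 alveolar type 1 markers, 4 of 5 club cell markers and 3 of 10 endothelial markers were lower at an unadjusted p under 0.05. All 5 epithelial markers were lower, 2 of them at that threshold, with a median log2 difference of −0.72. Over all genes at their brightest probe set, 7.12% were lower and 4.35% higher at that threshold. Of 8 fibroblast markers, 3 were higher and 1 lower at that threshold, with a median log2 difference of 0.80, and their summed intensity had a median of 5879 in metastases and 2961 in the primary tumors of mice 1 to 4. Summed club cell marker intensity lay between 407 and 871 in metastases and between 1661 and 5950 in all primary tumors, with no overlap. Summed endothelial marker intensity lay between 1316 and 2088 in metastases and between 1485 and 2169 in primary tumors. None of these markers was at the floor in any tumor, and their part in the receptor differences was not tested.

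The ligands gave no common direction. Tgfb1, the most widely expressed of them, had 151, 116 and 235 in the inguinal, subcutaneous and liver metastases of mouse 1 and 177 in the liver metastasis of mouse 2, against 225 and 199 in their primary tumors. It had 359, 742 and 262 in the body wall, heart and lymph node metastases of mouse 3, against 226 in its primary tumor. It had 124 and 126 in the lymph node and pleura metastases of mouse 4, against 203 in its primary tumor. All 3 metastases of mouse 3 were thus above their own primary tumor and both of mouse 4 below it, and the fit over the mice gave −0.10 (SE 0.33, adjusted p = 0.942). The sign of that difference turned without mouse 1 (0.05) and without mouse 4 (0.10). The summed intensity of 8 fibroblast markers was 18605, 13466 and 15958 in the body wall, heart and lymph node metastases of mouse 3, against 6019 in its primary tumor. In the other mice the fibroblast sum was also above the own primary tumor, including metastases where Tgfb1 was below it. The sum was 5879 and 4252 in the lymph node and pleura metastases of mouse 4, against 3290 in its primary tumor, and 4055 in the liver metastasis of mouse 2, against 2631. In mouse 1 it was 2378, 4092 and 8674 in the inguinal, subcutaneous and liver metastases, against 2347 in the primary tumor. The part of these markers in the Tgfb1 values was not tested.

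Neither Tgfb2 nor Tgfb3 passed the test, and their differences were small beside the spread between tumors. Tgfb3 lay between 132 and 195 (median 184) in metastases, against 166, 145, 186 and 166 in the primary tumors of mice 1 to 4, a difference of −0.00 (SE 0.10, adjusted p = 0.997). Tgfb2 at its brightest probe set, 1423250_a_at, lay between 16.4 and 71.2 (median 44.0) in metastases, against 34.5, 28.6, 46.5 and 40.0 in the primary tumors of mice 1 to 4. The difference was 0.09 (SE 0.28, adjusted p = 0.940), and its dimmer probe sets gave 0.19 and 0.16 (adjusted p = 0.788 and 0.898).

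**Figure D3:**
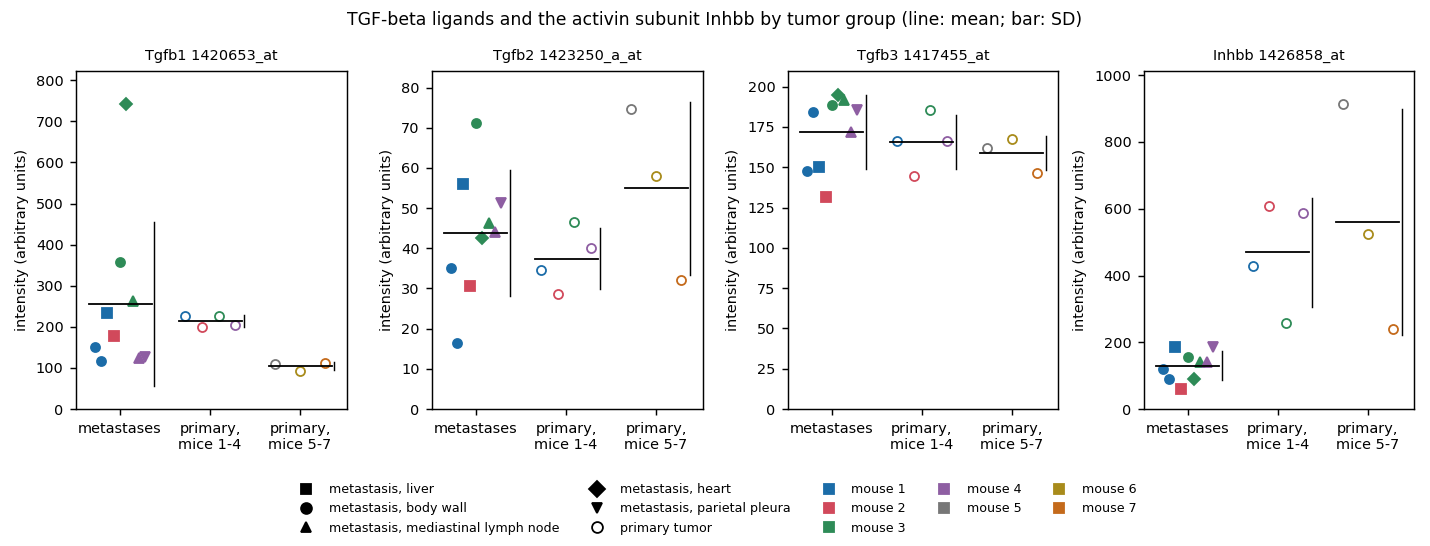
Intensity (arbitrary units, linear axes from 0) of Tgfb1, Tgfb2, Tgfb3 and the activin subunit Inhbb in metastases (filled), primary tumors of mice 1 to 4 and primary tumors of mice 5 to 7 (open), with the group mean as a line and the SD as a bar. The heart metastasis of mouse 3 has the highest Tgfb1 value (742), and all 9 metastases lie below every primary tumor for Inhbb.

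Id1 and Smad7 split by mouse. Id1, an inhibitor of E proteins, had 1647, 2424 and 1192 in the inguinal, subcutaneous and liver metastases of mouse 1 and 1448 in the liver metastasis of mouse 2, against 1043 and 522 in their primary tumors. It had 232, 556 and 241 in the body wall, heart and lymph node metastases of mouse 3 and, in mouse 4, 297 in the lymph node and 455 in the pleura, against 1224 and 676 in their primary tumors. All 4 metastases of mice 1 and 2 were above their own primary tumor and all 5 of mice 3 and 4 were below it. The mean log2 ratios of mice 1 to 4 were 0.69, 1.47, −1.96 and −0.88, and the fit over the mice gave −0.30 (SE 0.49, adjusted p = 0.872). That value was 0.35 without mouse 3, −0.69 without mouse 1 and −0.71 without mouse 2. The difference between the mice was not tested.

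Smad7, which blocks the receptors, had the same signs in the same 9 metastases. It had 357, 347 and 538 in the inguinal, subcutaneous and liver metastases of mouse 1 and 396 in the liver metastasis of mouse 2, against 269.9 and 275 in their primary tumors. It had 307, 306 and 289 in the body wall, heart and lymph node metastases of mouse 3 and, in mouse 4, 153 in the lymph node and 201 in the pleura, against 357 and 297 in their primary tumors. The mean log2 ratios of mice 1 to 4 were 0.59, 0.53, −0.25 and −0.76, and the fit gave 0.00 (SE 0.22, adjusted p = 0.999), with −0.22 without mouse 1 and 0.26 without mouse 4. Over the 16 tumors the log2 values of Id1 and Smad7 correlated with a Pearson r of 0.64, a description over tumors that share mice.

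Summed markers of hepatocytes, macrophages and mesothelium each separated the metastases of mice 1 and 2 from those of mice 3 and 4 in level. These are levels, while the signs of Id1 and Smad7 are against the own primary tumor. The summed intensity of 6 measured hepatocyte markers of 7 listed was 7651, 5951 and 7983 in the inguinal, subcutaneous and liver metastases of mouse 1 and 5755 in the liver metastasis of mouse 2. It lay between 228 and 1793 in the 5 metastases of mice 3 and 4 and between 754 and 1217 in the primary tumors of mice 1 to 4. The 2 body wall metastases of mouse 1 thus held as high a summed hepatocyte level as the liver metastases. In mouse 4 the hepatocyte sum was 1239 and 1793 in the metastases, above the 1217 of the primary tumor, where Id1 and Smad7 were below it. The macrophage sum lay between 1178 and 1586 in metastases of mice 1 and 2 and between 2033 and 3960 in those of mice 3 and 4. The mesothelium sum lay between 111 and 160 and between 163 and 1356 in the same groups. In the primary tumors of mice 1 to 4 the macrophage sums were 1615, 1711, 1926 and 1779 and the mesothelium sums 134, 163, 1201 and 131. Against the own primary tumor the mesothelium sum did not split by these mice. In mouse 3 the heart and lymph node metastases (1024 and 867) lay below the primary tumor and the body wall metastasis (1356) above. In mouse 1 the inguinal metastasis (111) lay below and the others above. One hepatocyte marker, Fgb, was at the floor in 1 tumor, and the part of the 3 marker lists in the Id1 and Smad7 values was not tested.

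Id2 and Id3, of the same inhibitor family, followed other patterns. Id2 at its brightest probe set, 1435176_a_at, had 1584 in the liver metastasis of mouse 2, the highest of the 16 tumors, against 447 in its primary tumor. The other 8 metastases lay between 224 and 627 and were each below their own primary tumor, which had 1076, 735 and 459 in mice 1, 3 and 4. The difference was −0.45 (SE 0.45, adjusted p = 0.774). The other Id2 probe sets, which correlated with it at a Pearson r of 0.84 and 0.76, gave −0.48 and 0.01 (adjusted p = 0.683 and 0.999), and both were higher in the liver metastasis of mouse 2 than in its primary tumor. These values rest on that single metastasis. Without mouse 2 the differences were −0.97 at 1435176_a_at, −0.93 at 1422537_a_at and −0.46 at 1453596_at (adjusted p = 0.385, 0.264 and 0.690 from limma), the first pair at an unadjusted p under 0.05.

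Id3 lay between 99.1 (body wall, mouse 3) and 501 (subcutaneous body wall, mouse 1), with a median of 262, in metastases, against 343, 209, 270.1 and 262 in the primary tumors of mice 1 to 4. Of the 9 metastases, 6 were below their own primary tumor, and the difference was −0.00 (SE 0.32, adjusted p = 1.00). Over the 16 tumors Id3 correlated with Id1 at a Pearson r of 0.67 and with Id2 at 0.14.

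**Figure D4:**
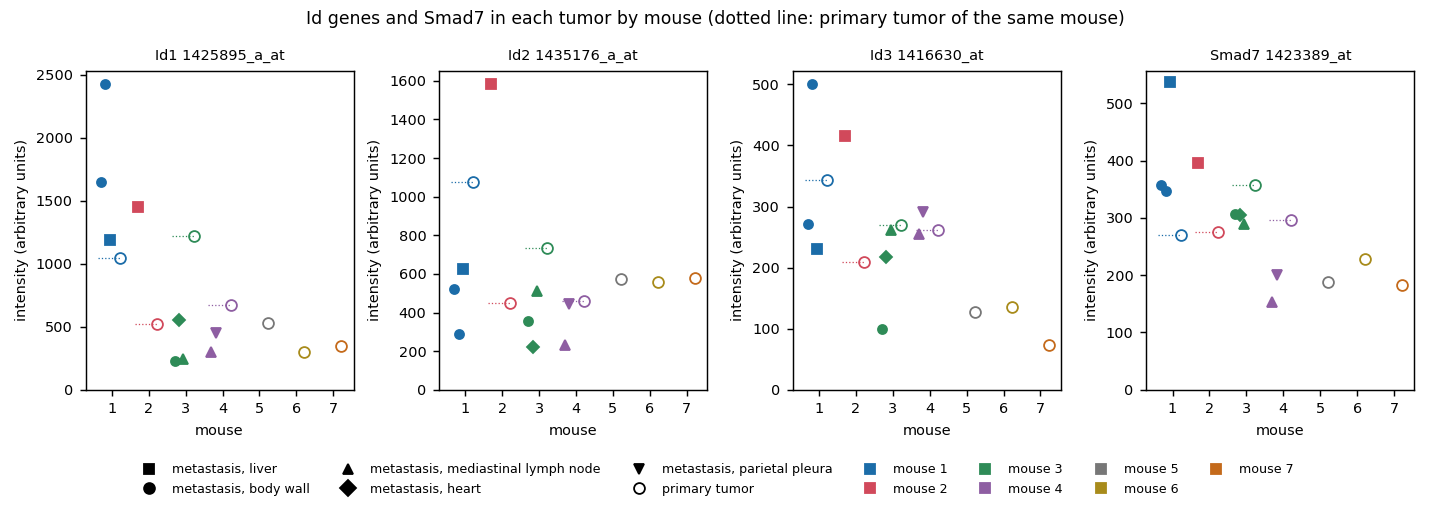
Intensity (arbitrary units, linear axes from 0) of Id1, Id2, Id3 and Smad7 by mouse, with metastases as filled symbols to the left of the open circle of the primary tumor, whose level is drawn as a dotted line. The metastases of mice 1 and 2 lie above the line and those of mice 3 and 4 below it for Id1 and Smad7, and Id2 reaches 1584 in the liver metastasis of mouse 2.

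**Figure D5:**
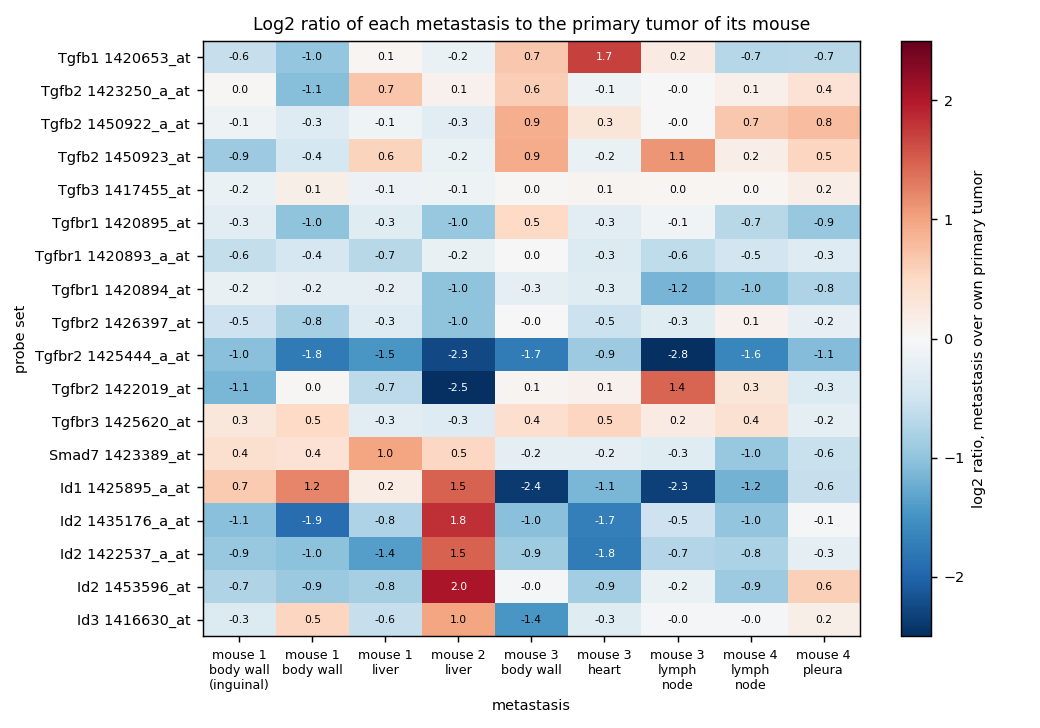
Log2 ratio of each of the 9 metastases (columns) to the primary tumor of its mouse for the 18 probe sets (rows), red above and blue below the primary tumor, with colours capped at 2.5. The row of Tgfbr2 1425444_a_at is negative in all 9 columns, between −2.77 and −0.91, and the row of Id1 is positive in the 4 columns of mice 1 and 2 and negative in the other 5.

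The second comparison used all 16 tumors, which adds the primary tumors of mice 5, 6 and 7, with the mouse as a random block. It shares the 9 metastases and 4 of the primary tumors with the first. Again no member passed an adjusted p of 0.05 in limma, where 1.24% of all probe sets did, and 5 of 18 were lower at an unadjusted p under 0.05, where 6.46% of all were. Those were again the 3 Tgfbr1 probe sets and 1426397_at and 1425444_a_at of Tgfbr2. At Tgfbr1 1420895_at the primary tumors of mice 5, 6 and 7 had 895, 564 and 476, and the difference over 16 tumors was −0.55 (SE 0.18, adjusted p = 0.161). At Tgfbr1 1420894_at they had 100.3, 83.0 and 69.6, and the difference was −0.51 (SE 0.16, adjusted p = 0.162). At Tgfbr1 1420893_a_at they had 86.5, 102 and 93.5, all inside the range of the metastases (76.5 to 119). The difference there was −0.25 (SE 0.12, adjusted p = 0.403). At Tgfbr2 1426397_at the primary tumors of mice 5, 6 and 7 had 1055, 830.0 and 697, and the difference was −0.39 (SE 0.17, adjusted p = 0.334). At Tgfbr2 1425444_a_at the difference was −0.94 (SE 0.40, adjusted p = 0.335). Without mouse 1, or with no block for the mouse, 2 of 18 stayed under an unadjusted p of 0.05.

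By site, no member passed an adjusted p of 0.05 in an F test over the 5 metastasis sites, where 0.15% of all probe sets did. At an unadjusted p under 0.05, 2 of 18 passed, where 7.84% of all probe sets did. They were the dim 1422019_at of Tgfbr2 and 1435176_a_at of Id2 (adjusted p = 0.595 and 0.603). With 1 metastasis left out, that count lay between 1 and 6, with 6 without the body wall metastasis of mouse 3, 5 without the liver metastasis of mouse 1, and 1 without the lymph node metastasis of mouse 4 or the subcutaneous one of mouse 1. None passed against the primary tumors in the liver (0.468% of all probe sets passed), the body wall (0.172%) or the lymph node (0.0619%). Heart and pleura had 1 tumor each and were not tested alone.

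The liver tumors came from mice 1 and 2 and the lymph node tumors from mice 3 and 4, so that site and mouse cannot be told apart between these sites. Within mouse 1, Tgfbr3 had 240.1 and 281 in the inguinal and subcutaneous body wall metastases and 165 in the single liver metastasis, against 197 in the primary tumor. The F test over the sites gave an adjusted p of 0.751 for Tgfbr3. Smad7 was 538 and 396 in the liver metastases, against 182 to 357 in the 7 primary tumors, a difference of 0.83 (SE 0.26, adjusted p = 0.20). In lymph nodes it was 289 and 153, with a difference of −0.33 (SE 0.26, adjusted p = 0.733). Both liver values lay above all primary tumors, and of the lymph node values 289 lay among them and 153 below. Id1 differed from the primary tumors by 0.86 in the liver (SE 0.70, adjusted p = 0.649), by 0.42 in the body wall (SE 0.61, adjusted p = 0.858) and by −1.09 in lymph nodes (SE 0.70, adjusted p = 0.647). Tgfbr1 1420894_at was lower than in the primary tumors by 0.85 log2 units in lymph nodes (adjusted p = 0.283) and by 0.69 in the liver (adjusted p = 0.224), against 0.27 in the body wall (adjusted p = 0.685). Whether the sites differed from each other in these genes was tested only in the F test.

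The third comparison set the primary tumors of mice 1 to 4, which have matched metastases here, against those of mice 5 to 7. Of the 18 member probe sets, 2 were higher in mice 1 to 4 at an adjusted p under 0.05 in limma, where 0.685% of all probe sets were. At an unadjusted p under 0.05, 6 were higher, where 13.4% of all were, and 0 were lower, where 1646 of all 22626 were. In 5 of them all 4 primary tumors of mice 1 to 4 lay above all 3 of mice 5 to 7, as in 12.9% of all probe sets. The median log2 difference was 0.11 over the 18 and 0.06 over all probe sets tested.

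Tgfb1 was 225, 199, 226 and 203 in the primary tumors of mice 1 to 4, against 109.7, 93.8 and 111 in those of mice 5 to 7. The groups were 214 ± 14.2 (SD, n = 4) and 105 ± 9.55 (SD, n = 3), with no overlap, and differed by 1.03 log2 units (SE 0.13, adjusted p = 0.0378 from limma). Tgfbr2 at 1425444_a_at was 74.6 ± 22.5 (SD, n = 4) in mice 1 to 4 and 18.5 ± 6.34 (SD, n = 3) in mice 5 to 7, a difference of 2.02 (SE 0.31, adjusted p = 0.0435 from limma). Its brightest probe set, 1426397_at, did not follow, with 853 ± 142 (SD, n = 4) and 861 ± 181 (SD, n = 3) and a difference of −0.01 (SE 0.20, adjusted p = 0.993 from limma). Both calls were lost in each of the 7 fits that left out a single primary tumor, where the adjusted p lay between 0.0658 and 0.112 for Tgfb1 and between 0.0809 and 0.118 for Tgfbr2. The log2 differences then lay between 0.95 and 1.07 for Tgfb1 and between 1.78 and 2.27 for Tgfbr2.

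The other 4 probe sets at an unadjusted p under 0.05 belonged to Id3, Smad7, Id1 and Tgfbr1. Id3 was 343, 209, 270.1 and 262 in the primary tumors of mice 1 to 4, against 127, 136 and 73.5 in those of mice 5 to 7, a difference of 1.30 (SE 0.27, adjusted p = 0.0682), and the adjusted p was 0.0285 with dim probe sets left out. Smad7 was 269.9, 275, 357 and 297 in mice 1 to 4, against 188, 227 and 182 in mice 5 to 7, a difference of 0.59 (SE 0.16, adjusted p = 0.111). Neither gene overlapped between the groups. Id1 had 1043, 522, 1224 and 676 in mice 1 to 4, against 531, 301 and 345 in mice 5 to 7, and these overlapped at 522 and 531, with a difference of 1.11 (SE 0.35, adjusted p = 0.151). Tgfbr1 1420893_a_at was 137, 117, 119 and 135 in mice 1 to 4, against 86.5, 102 and 93.5 in mice 5 to 7, a difference of 0.43 (SE 0.13, adjusted p = 0.136). The remaining members overlapped between the groups. In the primary tumors of mice 5, 6 and 7, Tgfb2 1423250_a_at had 74.7, 58.1 and 32.1, Tgfb3 had 162, 167 and 147, and Tgfbr3 had 324, 156 and 260.2. Id2 1435176_a_at had 573, 556 and 578 there, a narrower spread than the 447 to 1076 of mice 1 to 4, and Tgfbr1 1420894_at had 100.3, 83.0 and 69.6. The probe sets of Id2, Tgfb2, Tgfb3 and Tgfbr3 gave differences with an adjusted p between 0.414 and 0.973. Summed hepatocyte marker intensity lay between 754 and 1217 in mice 1 to 4 and between 310 and 571 in mice 5 to 7, and summed fibroblast marker intensity between 2347 and 6019 in mice 1 to 4 and between 1434 and 3565 in mice 5 to 7. The lymphocyte and skeletal muscle lists ran the other way without overlap. The lymphocyte sum lay between 304 and 328 in mice 1 to 4 and between 367 and 377 in mice 5 to 7, with Cd3e, Cd3d and Ltb at the floor in 2, 11 and 7 of the 16 tumors, and the skeletal muscle sum lay between 228 and 273 in mice 1 to 4 and between 281 and 303 in mice 5 to 7. The part of these markers in the differences was not tested.

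The rest of the pathway was read from 7 lists of 76 genes, of which 67 were measured, each at its brightest probe set. In metastases against matched primary tumors 1 of the 67 (1.49%) fell and 0 rose at an adjusted p under 0.05, where 0.355% of all 12393 genes fell and 0.0161% rose. At an unadjusted p under 0.05, 5 (7.46%) were lower and 4 (5.97%) higher, near the 7.12% and 4.35% of all genes. The median log2 difference was −0.04, beside −0.01 over all genes. None of the 10 other receptors and none of the 11 Smads and coregulators passed even the unadjusted threshold. The same held for the 15 measured target genes, of which 7 had a positive and 8 a negative difference. They include the matrix genes Fn1 (−0.04) and Col1a1 (0.85, adjusted p = 0.465) and the cell cycle inhibitor Cdkn1a (−0.48, adjusted p = 0.620, limma). These 3 were named here as examples after their values were seen. Over 16 tumors Col1a1 differed by 1.28 (unadjusted p = 0.00851, adjusted p = 0.181 from limma).

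The gene that fell was Inhbb, which encodes the beta B subunit of activins and inhibins, ligands of the TGF-beta family that signal through Smad2 and Smad3. Its intensity was 121, 90.4 and 186 in the inguinal, subcutaneous and liver metastases of mouse 1 and 59.9 in the liver metastasis of mouse 2, against 427 and 608 in their primary tumors. It was 157, 90.4 and 141 in the body wall, heart and lymph node metastases of mouse 3 and, in mouse 4, 142 in the lymph node and 187 in the pleura, against 258 and 588 in their primary tumors. All 9 metastases were below their own primary tumor, and below the primary tumors of mice 5, 6 and 7 as well (914, 526 and 240.5). The difference was −1.87 (SE 0.32, adjusted p = 0.0486 from limma), and −1.90 over 16 tumors (adjusted p = 0.00371). The paired call lies at the threshold and was lost with any mouse or any metastasis left out (adjusted p between 0.0629 and 0.279), with either higher floor (0.0605 and 0.0741), with quantile normalization (0.0594), with centred arrays (0.0525) and with 1 mean ratio per mouse (0.353). Over 16 tumors it was lost only without mouse 1 (0.0615).

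Bmp5 and Fst were the other genes of the lists under an unadjusted p of 0.01. Bmp5, a BMP ligand, was 24.0 ± 6.99 (SD, n = 9) in metastases and 45.2 ± 3.98 (SD, n = 4) in the primary tumors of mice 1 to 4, lower in 9 of 9 metastases, with a difference of −0.90 (SE 0.19, adjusted p = 0.0832 from limma). Fst, which encodes the activin antagonist follistatin, was 72.1 ± 51.2 (SD, n = 9) in metastases and 113 ± 48.4 (SD, n = 4) in the primary tumors of mice 1 to 4, lower in 8 of 9, with a difference of −0.84 (SE 0.20, adjusted p = 0.144 from limma). In the primary tumors of mice 5, 6 and 7, Fst had 38.8, 103 and 52.5, inside the range of the metastases (29.4 to 176). Bmp5 had 38.6, 18.6 and 43.4 there, and the 18.6 of mouse 6 lay inside the range of the metastases (16.6 to 36.3). Over 16 tumors the difference was −0.57 for Fst (adjusted p = 0.517 from limma) and −0.77 for Bmp5 (adjusted p = 0.0742 from limma). The adjusted p of Bmp5 was 0.0334 and that of Fst 0.0624 with dim probe sets left out. Bmp5 was dim in metastases, where its mean lay under the 25th percentile of 24.3. With intensities floored at 24.3, Bmp5 gave −0.73 (adjusted p = 0.0504 from limma) and Fst an adjusted p of 0.166.

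The genes whose pattern over the 16 tumors was most like that of each member, among 10656 bright probe sets of other genes, were ranked by the Pearson r of log2 values. These are descriptions over 16 tumors that share mice. Inhbb stood closest to Tgfbr1 (0.85), ahead of Lrrfip1 (0.85) and Pyy (0.85). Closest to Tgfbr2 was Socs3, a feedback inhibitor of cytokine signalling, at 2 probe sets (0.90 each), followed by Mkrn1 (0.89). Npy, a neuropeptide, Map7d1 and the integrin subunit Itga3 stood closest to Tgfb1 (0.92, 0.91 and 0.91). Fbl, Daxx and Lsr stood closest to Smad7 (0.90, 0.89 and 0.89), and Bok, Gnpnat1 and Ldah closest to Id1 (0.89, 0.88 and 0.88). Cxadr, Gpc3 and Cdcp1 stood closest to Id2 (0.86, 0.83 and 0.83), and Stk16, Trmt1 and Nprl3 closest to Id3 (0.81, 0.80 and 0.80). Slamf6, Blm and Bola2 stood closest to Tgfbr3 (0.91, 0.89 and 0.85), Dnajc4, Sppl2a and Atxn2 to Tgfb2 (0.80, 0.79 and 0.78), and Ppp2ca, Ms4a6d and the matrix gene Postn to Tgfb3 (0.82, 0.82 and 0.81). Among the members themselves, the brightest probe sets of Tgfbr1 and Tgfbr2 correlated at 0.75, while Tgfbr3 correlated with them at 0.12 and −0.01.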

How the data were processed

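RNA of 16 tumors was hybridized to 1 Affymetrix Mouse 430A 2.0 array each. The authors deposited linear intensities, which dChip estimated with a perfect match minus mismatch model once arrays had been brought to a common scale on an invariant set of probes. The software versions are not given in the sources used here. Groups, mouse and site were taken from the submitters' labels. Of 22690 probe sets, 64 controls were left out. Intensities under 1 (3.71% of values) were raised to 1 and log2 values taken. Probe sets were named from GEO's platform annotation: 20380 carry 1 symbol, 691 several and 1555 none.

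All 22626 probe sets were fitted in limma 3.58.1 (R 4.3.3), after tests on simulated data, with Benjamini-Hochberg adjustment. The 13-tumor fit held the mouse as a block, since the labels place each metastasis and its primary tumor in 1 mouse. As a check of the pairing, deviations from the group means of same-mouse tumors correlated with an r between −0.00 and 0.40, and 6 of 9 metastases were closest to their own primary tumor. The 16-tumor fit and the fit by site held the mouse as a random block (consensus correlation 0.238 and 0.261), and the fit of primary tumors had no block. The methods' t-test is the paired t-test over the 9 log2 ratios. It takes metastases of 1 mouse as independent, as the limma fit does after the block.

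Every member was described at its brightest probe set and at any other with an unadjusted p under 0.05 in the 13-tumor fit. Metastases are given tumor by tumor or, for some of these probe sets, as a range. Genes of the pathway lists were named at an unadjusted p under 0.01. The members and lists were chosen with earlier results of these data known. Alternatives were higher floors, a filter on dim probe sets (76.2% kept), quantile normalization, centring, other pairings and variance models, and tumors or mice left out.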

Additional observations from a re-analysis of the deposited data

Results flagged for a closer look

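In 12 results every metastasis of 1 mouse or site moved one way against its own primary tumor while every metastasis of another moved the opposite way. The rule was applied to the 18 member probe sets alone. How often all 22626 probe sets would meet it was not counted, so 12 cannot be read as many or few. None of the 12 differences was tested, several rest on 2 metastases, and sites and mice overlap. Each value is the difference of mean log2 ratios. For Id1 the mean ratio was 0.69 in mouse 1, against −1.96 in mouse 3 (difference 2.65) and −0.88 in mouse 4 (difference 1.57). Id1 also averaged 0.83 in the liver and −1.76 in the lymph nodes (difference 2.59). Smad7 averaged 0.59 in mouse 1, against −0.25 in mouse 3 (difference 0.84) and −0.76 in mouse 4 (difference 1.35), and 0.76 in the liver and −0.63 in the lymph nodes (difference 1.39). Tgfb1 averaged 0.87 in mouse 3 and −0.70 in mouse 4 (difference 1.57).

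Tgfbr3 averaged 0.41 in the body wall and −0.28 in the liver (difference 0.69), and the liver differed from the lymph nodes (0.29) by −0.58. Tgfb3 averaged −0.14 in the liver and 0.05 in the lymph nodes (difference −0.19). Tgfb2 at the dim 1450922_a_at averaged −0.19 in mouse 1 and 0.72 in mouse 4 (difference −0.91). Tgfbr2 at 1422019_at, under the 25th percentile in all 16 tumors, averaged −1.58 in the liver and 0.87 in the lymph nodes (difference −2.45). In 36 groups, each the 9 metastases or the 7 primary tumors at a probe set, 0 had a tumor set apart from the rest by Dixon's criterion.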

How the results depend on the processing

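The count of member probe sets past an adjusted p of 0.05 in the paired comparison, 0 as reported, was 1 with the floor at the 25th percentile, with dim probe sets left out and with a variance trend and robust prior, and 2 in the methods' t-test. It lay between 0 and 1 with a mouse or metastasis left out. It stayed 0 with the floor at the 10th percentile, quantile normalization, centred arrays, no replicate block and 1 mean ratio per mouse. In the 16-tumor comparison and by site the count was 0 under every alternative run, including 0 with no replicate block for the 16 tumors. Among the primary tumors the count of 2 was 0 with any tumor left out, 3 with dim probe sets left out (Id3 added) and 2 under the other alternatives. No paired analysis was possible there because each mouse has 1 primary tumor.

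Over all probe sets the paired count of 80 was 239 with dim probe sets left out, 224 with the variance trend, 43 with no replicate block, 0 with 1 mean ratio per mouse and 884 in the methods' t-test. The 16-tumor count of 280 was 456 and 156 with dim probe sets left out and no replicate block. The site count of 34 was 66 and 125 with the higher floors. The count for primary tumors of 231 was 627 and 371 with these floors and 1030 with dim probe sets left out. The number of arrays and the dim intensities limit what could be called, and the causes of these shifts were not tested. No called value turned its sign.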

Other observations

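The E protein genes Tcf3, Tcf4 and Tcf12, whose products the Id proteins bind, were measured beside the Id genes. Tcf3 was 212 ± 75.7 (SD, n = 9) in metastases and 133 ± 32.1 (SD, n = 4) in the primary tumors of mice 1 to 4, a difference of 0.63 (SE 0.27, adjusted p = 0.415 from limma). Tcf4 gave −0.37 (SE 0.18, adjusted p = 0.49) and Tcf12 gave −0.09 (SE 0.10, adjusted p = 0.795). The type I activin receptor Acvr1b averaged 234 in metastases and 248 in the primary tumors of mice 1 to 4, beside 531 in those of mice 5 to 7 (mice 1 to 4 minus mice 5 to 7, −1.07, adjusted p = 0.0593). The secreted follistatin-like protein gene Fstl1 was 787 ± 547 (SD, n = 9) in metastases and 373 ± 171 (SD, n = 4) in the primary tumors of mice 1 to 4, a difference of 0.70 (SE 0.27, adjusted p = 0.344 from limma). These genes belong to the pathway lists and were singled out after their values were seen.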
